A study of Mus musculus with 10 samples.

Results

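ERα binding was examined at 8 genes that encode steroid receptors and the orphan nuclear receptors closest to them in steroid biology, namely Esr1, Esr2, Pgr, Nr3c1, Nr3c2, Nr0b1 (which encodes Dax1), Nr5a1 and Nr5a2. A peak was assigned to a gene when it lay in the gene body or within 100 kb of any RefSeq start site of that gene. Overlapping peaks of different libraries (1 bp or more in common) were joined into a region, which gave 21 regions holding 72 peaks at these genes, of 8072 regions and 25982 peaks in the series. The genes were chosen by name among 21774 protein-coding genes, with earlier results of these data known.

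The libraries were made by chromatin immunoprecipitation sequencing (ChIP-seq), in which an antibody, here sc-543 against ERα, pulls down the DNA that a protein occupies, and places where reads exceed background are listed as peaks. The arcuate nucleus gave 4 libraries, as did the anteroventral periventricular nucleus (AVPV). Both are hypothalamic nuclei that hold KISS1 neurons, and the animals were C57BL/6 female mice. Both groups had been ovariectomised and fitted with a capsule of 17β-estradiol (0.1 mg/mL in sesame oil), and were given estradiol benzoate (0.05 mg/kg) 28 h before tissue was taken, so no untreated state was measured and the contrast is between nuclei. Chromatin was pooled, and no source says whether the libraries of a nucleus were separate pools, so SDs and p-values cover the spread between libraries, which may be technical. The age of these animals is not given in the labels, and the methods give only a typical age range for the mice of the study. Dissected tissue was used, so the lists cannot assign a peak to KISS1 neurons or to any other cell type, and peak lists hold no expression values with which to check the labelled tissue.

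ERα, encoded by Esr1, is a hormone-activated transcription factor that binds as a dimer to estrogen response elements, which are inverted repeats of the hexamer AGGTCA, and it can also be held at DNA by other factors. Pgr is a classical estrogen-induced gene in the hypothalamus, where the progesterone receptor takes part in the control of the luteinising hormone surge and of sexual behaviour. The other receptors read glucocorticoids (Nr3c1), mineralocorticoids (Nr3c2) or estrogen (Esr2). Nr5a1 encodes steroidogenic factor SF-1, a regulator of steroid synthesis genes that marks the ventromedial hypothalamus, Nr5a2 encodes its relative LRH-1, and Dax1 is a corepressor that binds SF-1, LRH-1 and estrogen receptors.

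The sequences of the regions that carry these results are given here from the RefSeq copy of mm10, with 100 bases on either side of the summit of the strongest peak. Capitals mark a match to the response element, which is the inverted repeat of AGGTCA with a spacer of 3 bases and at most 2 mismatches in its 12 fixed bases. The first 3 lines are the Pgr regions with a peak in every library, of which the middle one holds no match, and the others are the best supported regions of Nr5a1 and Nr5a2.
Pgr, 70.7 kb downstream, chr9:8970421-8970621, plus strand: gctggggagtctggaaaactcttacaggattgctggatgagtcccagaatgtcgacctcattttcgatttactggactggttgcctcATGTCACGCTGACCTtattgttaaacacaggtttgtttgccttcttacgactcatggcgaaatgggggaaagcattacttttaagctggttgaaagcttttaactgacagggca
Pgr, 61.1 kb upstream, chr9:8837702-8837902, plus strand: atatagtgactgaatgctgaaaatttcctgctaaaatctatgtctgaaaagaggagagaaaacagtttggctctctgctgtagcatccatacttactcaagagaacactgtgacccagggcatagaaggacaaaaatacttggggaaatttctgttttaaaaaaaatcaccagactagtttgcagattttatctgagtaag
Pgr, 79.6 kb upstream, chr9:8819208-8819408, plus strand: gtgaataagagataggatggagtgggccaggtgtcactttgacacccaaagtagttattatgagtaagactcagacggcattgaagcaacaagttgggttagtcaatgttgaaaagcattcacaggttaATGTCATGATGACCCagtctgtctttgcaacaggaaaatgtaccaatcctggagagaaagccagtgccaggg
Nr5a1, intron, chr2:38704466-38704666, plus strand: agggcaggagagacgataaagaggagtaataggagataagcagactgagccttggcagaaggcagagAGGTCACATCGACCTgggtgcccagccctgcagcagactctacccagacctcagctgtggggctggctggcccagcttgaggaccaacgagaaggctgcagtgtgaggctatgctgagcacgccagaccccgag
Nr5a2, 10.9 kb upstream, chr1:136971200-136971400, plus strand: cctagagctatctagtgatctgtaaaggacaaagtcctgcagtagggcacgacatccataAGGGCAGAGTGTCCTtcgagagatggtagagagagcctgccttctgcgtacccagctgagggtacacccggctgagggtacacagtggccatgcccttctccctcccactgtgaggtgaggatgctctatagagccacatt

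At the estrogen receptor genes, the lines that follow are the regions with most libraries, and neither held a match. For Esr1 a second region had as many libraries, with a lower median percentile, and it did hold matches, one of which is given with the Esr1 results. The Esr2 line is the promoter of the neighbouring gene Mthfd1, and the Esr1 line lies in an intron of the neighbouring gene Ccdc170.
Esr2, 78.1 kb upstream, chr12:76255226-76255426, plus strand: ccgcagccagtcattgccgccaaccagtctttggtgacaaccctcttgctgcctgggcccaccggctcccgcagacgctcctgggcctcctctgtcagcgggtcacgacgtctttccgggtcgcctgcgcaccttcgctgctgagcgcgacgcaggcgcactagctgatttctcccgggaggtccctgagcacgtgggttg
Esr1, 81.0 kb upstream, chr10:4530896-4531096, plus strand: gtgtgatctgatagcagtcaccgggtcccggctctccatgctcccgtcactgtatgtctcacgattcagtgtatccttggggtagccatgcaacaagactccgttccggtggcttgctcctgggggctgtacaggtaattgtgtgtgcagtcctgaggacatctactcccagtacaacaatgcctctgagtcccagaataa

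The lists held 3251 to 4079 peaks in the arcuate libraries and 2367 to 3347 in the AVPV libraries, and read depth was not analysed here. The 8 genes held 10, 8, 9 and 9 peaks in arcuate libraries 1 to 4 (9.0 ± 0.816, SD, n = 4) and 7, 9, 11 and 9 in AVPV libraries 1 to 4 (9.0 ± 1.63, SD, n = 4), so the ranges of the nuclei overlapped. As a share of its own list, arcuate libraries had 0.207% to 0.277% at these genes and AVPV libraries, whose lists are shorter, 0.294% to 0.354%. The shares thus did not overlap, while the counts did, and this difference in shares was not tested. Arcuate library 4 was the arcuate library least like the others, with a mean similarity of 0.405 (shared regions over all regions of a pair) against 0.483 to 0.499.

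Of the 21 regions, 10 were sites, meaning that at least 2 of the 4 libraries of a nucleus had a peak, against 54.4% of all regions. The remaining regions included 9 seen in a single library, against 41.5% of all regions. The sites were shared by both nuclei in 6 cases (48.8% of all sites), called in the arcuate alone in 2 (34.6%) and in the AVPV alone in 2 (16.6%). The shared sites were 4 at Pgr, 1 at Nr3c1 and 1 at Nr5a1. The arcuate sites were at Esr1 and Nr5a2, and the AVPV sites were at Esr2 and Nr5a1, although each of these AVPV sites also had a peak in 1 arcuate library. A site called in 1 nucleus is therefore a statement about the number of libraries, and the lack of a called peak in a library does not show that ERα was unbound there.

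**Figure D1:**
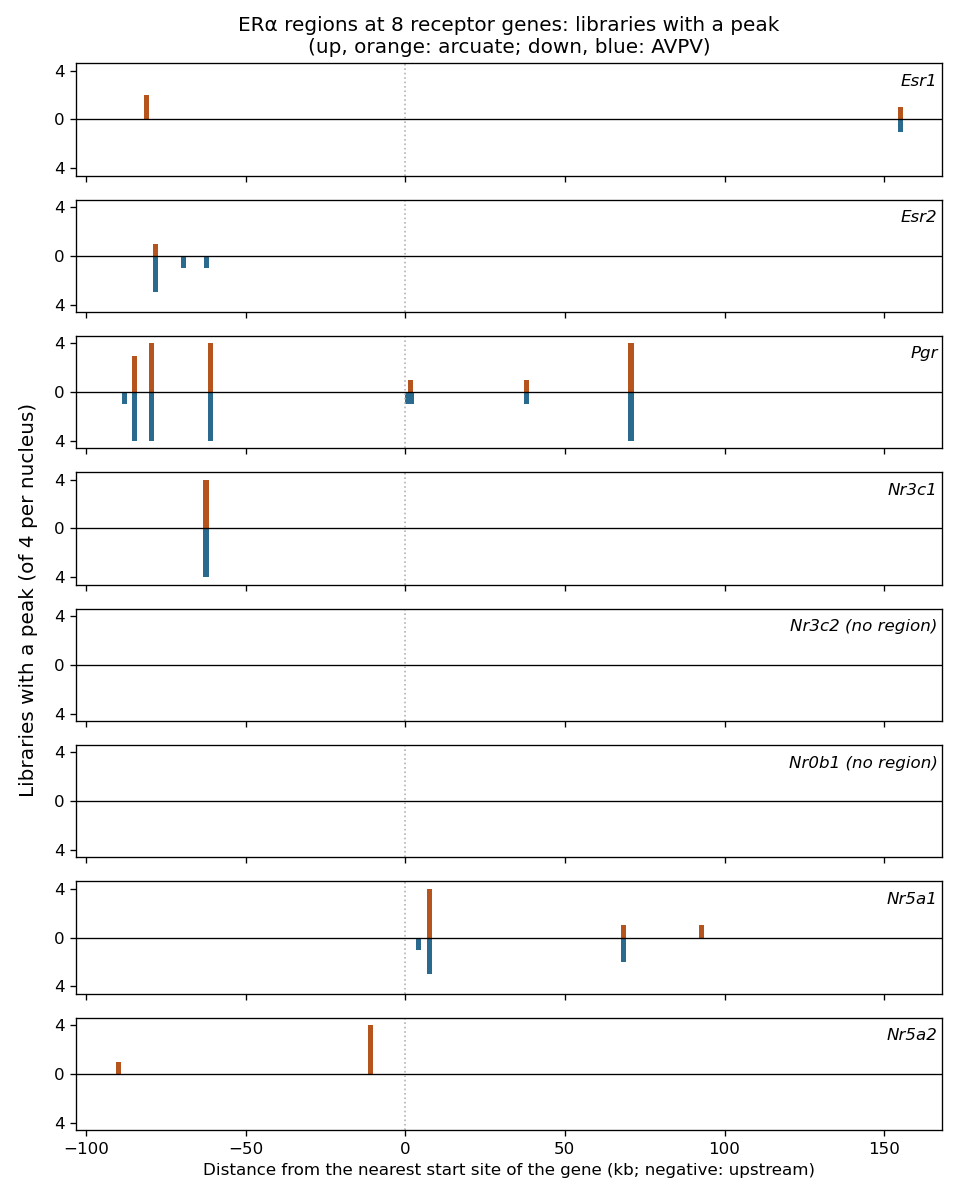
Each panel is a gene, and each bar is a merged region at its distance from the nearest start site of that gene (kb, negative upstream); the height upward is the number of arcuate libraries with a peak and downward the number of AVPV libraries, of 4 each. Pgr holds 3 full-height bars in both directions, Nr5a2 a full-height bar in the arcuate direction alone, and Nr3c2 and Nr0b1 hold none.

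Pgr had more ERα regions than any other gene of the group, with 9 regions, of which 4 were sites and 3 had a peak in all 8 libraries. Over all protein-coding genes, 1.70% had at least 4 sites in a window made by the same rule, 0.308% had at least 9 regions and 0.533% had at least 3 regions called in all 8 libraries. Regions called in all 8 libraries made up 13.5% of all regions. The window of Pgr was 201 kb long, close to the median of 200 kb over all genes. Whether window length bears on the number of regions was not tested.

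The strongest of them lay at chr9:8970116-8970754, 70.7 kb downstream of the start and 1.91 kb past the end of the gene, in intergenic sequence. Its fold enrichment, the ratio of the signal at the summit to the local background, was 15.9, 18.8, 11.1 and 8.66 in arcuate libraries 1 to 4 and 11.5, 9.83, 12.5 and 16.7 in AVPV libraries 1 to 4. Since each list has its own background, peaks were compared by their percentile of fold enrichment within their list, where 100 is the strongest. These percentiles were 94.1, 96.8, 85.3 and 79.1 in the arcuate (88.8 ± 8.16, SD, n = 4) and 83.8, 79.2, 87.8 and 93.7 in the AVPV (86.1 ± 6.17, SD, n = 4). All libraries thus placed this Pgr region in the upper part of their lists, the nuclei overlapped, and in arcuate library 2 it ranked 124 of 3869 peaks. The difference of 2.70 percentiles did not exceed the spread of the libraries (exact permutation test, two-sided, over the 70 assignments of the libraries, p = 0.571, Benjamini-Hochberg adjusted p = 0.724 over the 1089 regions with a peak in all 8 libraries). Of those 1089 regions, 33.3% had a median percentile at least as high.

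The element match in that Pgr region had 1 mismatch, and its centre was 6 bp from the summit of the strongest peak. The summits of the 8 libraries lay 2 to 62 bp from it. The same element structure with 1 mismatch was also found in an intron of Pgr, at chr9:8937707-8937967 and 38.0 kb from the start, 17 bp from the summit. That intronic region was called in arcuate library 1 (percentile 36.0) and AVPV library 4 (percentile 60.2) and in no other library, so it did not count as a site. The elements of these Pgr regions are shown because they have the same number of mismatches while the regions were called in 8 and in 2 libraries.
Pgr, 70.7 kb downstream, chr9:8970508-8970522, plus strand: ATGTCACGCTGACCT
Pgr, 38.0 kb downstream, chr9:8937848-8937862, plus strand: AGGTCACAGTGAACT

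Upstream of Pgr, 3 sites lay within a stretch of intergenic sequence 61.1 to 84.9 kb from the nearest Pgr start, which is that of a predicted transcript. The start of another gene, Gm32014, was nearer to the sites at 84.9 and 79.6 kb, at 73.0 and 78.3 kb from them. The site at chr9:8837605-8838375, 61.1 kb upstream, had percentiles of 86.2, 70.9, 81.0 and 79.1 in arcuate libraries 1 to 4 (79.3 ± 6.35, SD, n = 4) and 74.5, 79.2, 72.2 and 94.4 in AVPV libraries 1 to 4 (80.1 ± 9.998, SD, n = 4). It was strong in both nuclei, with the highest value in AVPV library 4, where its fold enrichment was 17.6. The nuclei overlapped and the difference of -0.762 percentiles was within the spread between libraries (exact permutation test, p = 0.886, adjusted p = 0.936). No response element, exact AGGTCA or AP-1 motif was found within 100 bp of its summit, although its fold enrichment reached the same range as that of the downstream region.

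The site at chr9:8818780-8819531, 79.6 kb upstream of Pgr, had the largest difference between nuclei among the 4 regions of these genes called in all 8 libraries. Its percentiles were 88.8, 82.5, 89.5 and 69.0 in arcuate libraries 1 to 4 (82.4 ± 9.48, SD, n = 4) and 66.7, 58.4, 52.2 and 80.6 in AVPV libraries 1 to 4 (64.5 ± 12.3, SD, n = 4). Fold enrichment ran from 7.21 to 12.7 over the arcuate libraries and from 6.25 to 10.4 over those of the AVPV. Of the 1089 regions called in all 8 libraries, 61.2% had a median percentile at least as high. Arcuate libraries 1, 2 and 3 were above every AVPV library, while arcuate library 4 was below AVPV library 4, so the groups overlapped. The difference of 17.98 percentiles did not pass the test (exact permutation test, p = 0.0571, adjusted p = 0.204), and the smallest p that 4 against 4 libraries allow is 0.0286. Over all 1089 such regions, 155 (14.2%) did not overlap with the arcuate higher and 74 (6.8%) with the AVPV higher, which in this design is the same as an unadjusted p of at most 0.05. After adjustment 0 passed, the smallest adjusted p being 0.136. The element match in this Pgr region had 2 mismatches, and the library summits lay 23 to 78 bp from its centre.

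The last of the Pgr sites, at chr9:8813679-8814126 and 84.9 kb upstream, was called in 3 arcuate and 4 AVPV libraries. Its percentiles were 65.2, 15.1 and 35.9 in arcuate libraries 1 to 3, where library 4 had no peak, and 45.2, 71.9, 28.6 and 69.2 in AVPV libraries 1 to 4. Both nuclei thus ranged from the lower to the upper part of their lists, and they overlapped. It held no element match.

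**Figure D2:**
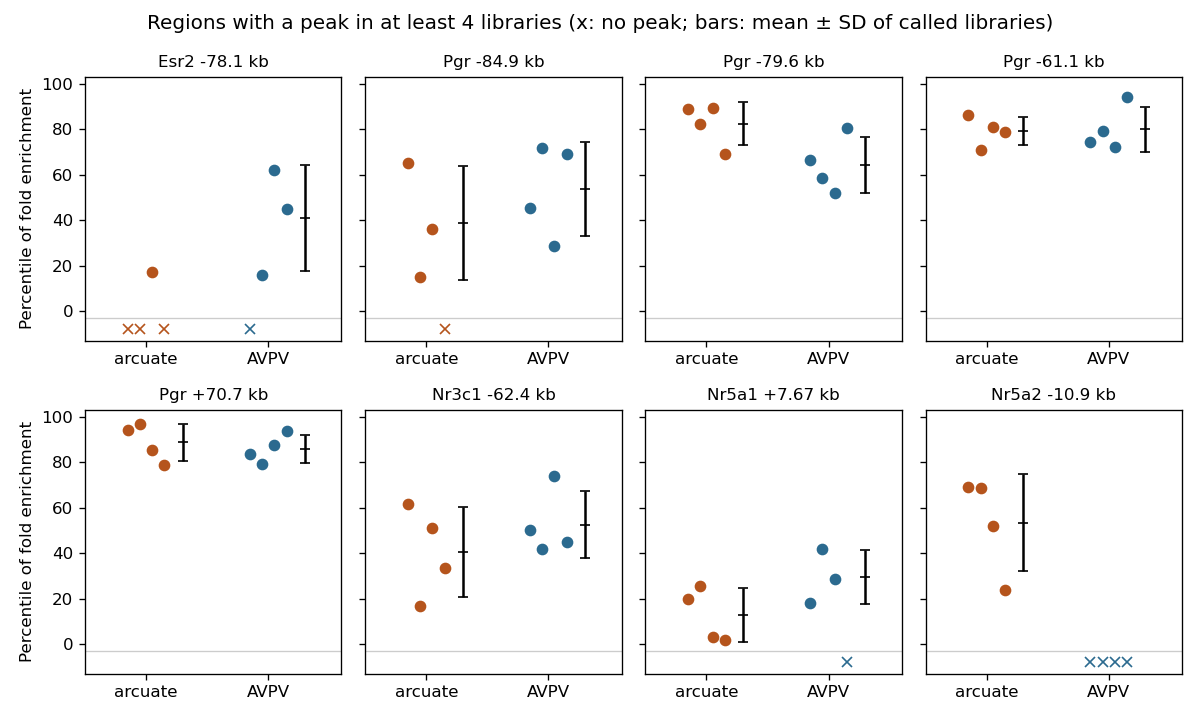
Percentile of fold enrichment within the list of each library (vertical axis, 0 to 100) for the 8 regions with a peak in at least 4 libraries, by nucleus; points are libraries, crosses are libraries with no peak, and bars are the mean ± SD of the libraries with a peak. The Pgr region at +70.7 kb runs from 79.1 to 96.8 in the arcuate and from 79.2 to 93.7 in the AVPV, the Pgr region at -79.6 kb has a mean of 82.4 in the arcuate and 64.5 in the AVPV with overlapping points, and the Nr5a2 region has crosses for all AVPV libraries.

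The promoter of Pgr itself, taken as the stretch from 1 kb before a start site to 100 bp after it, had no peak in any library. Within the first kilobases of the gene, 3 regions lay 0.612, 1.61 and 2.09 kb from the start in exon sequence, each in a single library. The regions at 0.612 and 2.09 kb came from AVPV library 3, at percentiles of 42.4 and 9.92, and the one at 1.61 kb from arcuate library 4, at 48.0. The remaining Pgr region, 87.9 kb upstream, was called in AVPV library 1 at percentile 2.2. Peak counts in the whole Pgr window were 5, 4, 4 and 4 in arcuate libraries 1 to 4 and 5, 4, 6 and 5 in AVPV libraries 1 to 4, which did not differ beyond the spread between libraries (exact permutation test, p = 0.371, adjusted p = 1.0 over 12394 genes with a peak).

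Nr5a2 was the gene whose calls separated the nuclei. Its site at chr1:136971060-136971393, 10.9 kb upstream of the start in intergenic sequence, had a peak in all 4 arcuate libraries and in no AVPV library. Fold enrichment was 7.86, 7.44, 6.39 and 4.73 in arcuate libraries 1 to 4, with percentiles of 69.1, 68.8, 52.2 and 23.8 and -log10 q-values of 17.5, 15.6, 9.16 and 4.28. Arcuate libraries 1 and 2 were thus the strongest and library 4, the one least like the others, was the weakest. Over all regions, 2.13% had this pattern and 0.818% the reverse, and at these genes it was 1 region against 0.

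For this Nr5a2 region the smallest p that the design allows was reached (Fisher's exact test, two-sided, p = 0.0286), but it did not pass after adjustment over all 8072 regions (adjusted p = 0.969). A stricter threshold on peaks (-log10 q of at least 5, fold enrichment above 5, or lists cut to the length of the shortest) left 3 arcuate libraries and 0 AVPV libraries. The element match had 2 mismatches, and the arcuate summits lay 13 to 57 bp from its centre. A second Nr5a2 region, 89.9 kb upstream, was called in arcuate library 4 alone at percentile 39.5. Peak counts in the Nr5a2 window were therefore 1, 1, 1 and 2 in the arcuate and 0 in every AVPV library, a separation that 2.46% of the 12394 genes with a peak showed in this direction and 0.524% in the other (exact permutation test, p = 0.0286, adjusted p = 0.957). That p is also the smallest possible, and no gene had a smaller adjusted p, so this adjusted value cannot decide either.

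Nr5a1 had 4 regions, of which 2 were sites, in a window of 202 kb. The better supported site lay in an intron of Nr5a1 at chr2:38704243-38704748, 7.67 kb from the start, and was called in all 4 arcuate libraries and in AVPV libraries 1 to 3. Its percentiles were 19.9, 25.5, 3.11 and 1.90 in arcuate libraries 1 to 4 and 18.2, 41.7 and 28.6 in AVPV libraries 1 to 3. AVPV library 4 had no peak, the values ran from the bottom of the list in arcuate libraries 3 and 4 to the middle in AVPV library 2, and the nuclei overlapped. Fold enrichment was 2.92 to 5.78. The -log10 q-values ran from 2.16 in arcuate library 4 to 15.8 in arcuate library 2. With fold enrichment above 5 the region was left with 0 arcuate and 2 AVPV libraries.

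The element match in this Nr5a1 intron had 1 mismatch, as did that of the strongest Pgr region, and the library summits lay 5 to 44 bp from its centre. The second Nr5a1 site was in an intron of the neighbouring gene Psmb7, 209 bp from the start of that gene and 68.5 kb from that of Nr5a1. It was called in arcuate library 4 (percentile 17.5) and in AVPV libraries 2 (1.20) and 3 (11.8), at the bottom of each list. The other Nr5a1 regions were a coding exon 4.22 kb from the start, called in AVPV library 3 (7.33), and an intron of Psmb7 92.7 kb away, called in arcuate library 2 (13.4).

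**Figure D3:**
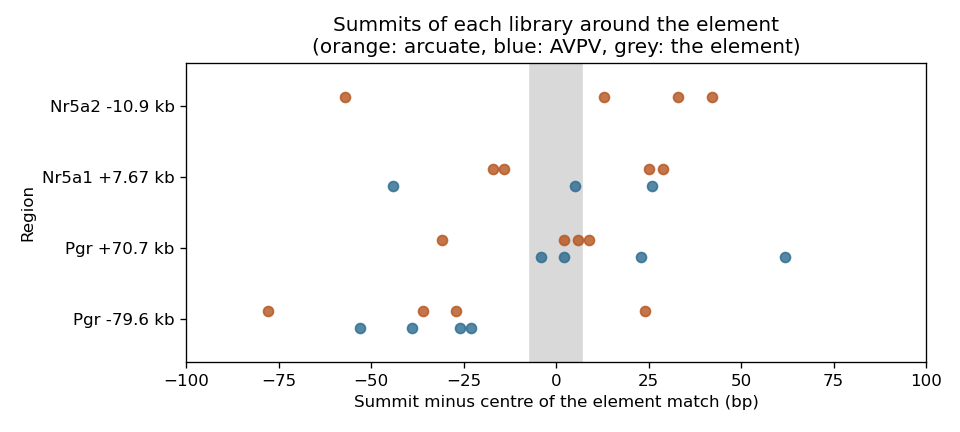
Distance of the summit of each library from the centre of the element match (bp on the plus strand) for the 4 regions called in at least 4 libraries that hold a match; points are libraries, orange for the arcuate and blue for the AVPV, and the grey band is the width of the element. Summits at the Pgr region at +70.7 kb lie 2 to 62 bp from the centre, and those at the Pgr region at -79.6 kb 23 to 78 bp.

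At the estrogen receptor genes themselves few peaks were called. Esr1, whose window spans 494 kb, had 2 regions, both far from any of its starts. The upstream one, at chr10:4530787-4531060, was called in arcuate libraries 1 (percentile 36.0) and 3 (percentile 43.2) and in no AVPV library, and it lay 81.0 kb from Esr1 but 2.60 kb from the start of Ccdc170, in whose intron it sits. Its summits were 155 bp apart, so it was no longer a site when summits had to lie within 100 bp, nor with lists of equal length, which left 1 arcuate library. The other lay in an intron of Esr1, 155 kb from the nearest start, and was called in arcuate library 1 (percentile 51.0) and AVPV library 2 (percentile 13.3). This intronic Esr1 region held 2 element matches, and the one with 1 mismatch was 8 bp from the summit. Of the sequence within 100 bp of that summit, 38.3% is marked as repeats in the genome copy. It was not checked whether the match with 1 mismatch lies in a repeat. That match is shown because it is the closer of the 2 to the element in the region called inside the gene that encodes ERα. The rest of the gene was not searched for matches.
Esr1, intron, chr10:4867234-4867248, plus strand: AGGTCAGCCTGGCCT

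Esr2, which encodes ERβ, had 3 regions, all upstream, and each of them was nearer to the start of another gene. The only site, at chr12:76254934-76255449, was 78.1 kb from Esr2 and 94 bp from the start of Mthfd1, an enzyme gene of folate metabolism, in its promoter. It was called in arcuate library 3 (percentile 17.3) and in AVPV libraries 2, 3 and 4 (15.9, 62.3 and 44.8), a difference in calls that did not pass the test (Fisher's exact test, p = 0.486). The others, both in AVPV library 4 alone, were the promoter of Tex21 at percentile 64.9 and a coding exon of Tex21 at percentile 29.0.

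Among the corticosteroid receptors, Nr3c1 had 1 region, with a peak in all 8 libraries, at chr18:39581523-39582023 and 62.4 kb upstream in intergenic sequence, where the nearest annotated start was that of Gm30909 at 42.4 kb. Its percentiles were 61.5, 16.6, 51.1 and 33.5 in arcuate libraries 1 to 4 (40.7 ± 19.8, SD, n = 4) and 50.1, 41.7, 73.9 and 44.8 in AVPV libraries 1 to 4 (52.6 ± 14.6, SD, n = 4). It was of middling rank in both nuclei, which overlapped, and the difference of -11.9 percentiles was within the spread between libraries (exact permutation test, p = 0.40, adjusted p = 0.597). By -log10 q the order of the nuclei turned, with a difference of 6.15 percentiles (exact permutation test, p = 0.60). Of all regions called in 8 libraries, 91.6% had a median percentile at least as high as that of Nr3c1. The region held 2 copies of AGGTCA and no inverted repeat.

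Nr3c2 and Nr0b1 had no peak in any library. Nr3c2 has a window of 447 kb, and the nearest region of any kind was 808 kb and the nearest site 2210 kb from it. Nr0b1, a short gene on chromosome X with a window of 200 kb, had its nearest region 975 kb away, a site called in 2 AVPV libraries and no arcuate library. Genes with no region in the window made up 43.1% of all protein-coding genes, and genes with no site made up 58.6%.

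**Figure D4:**
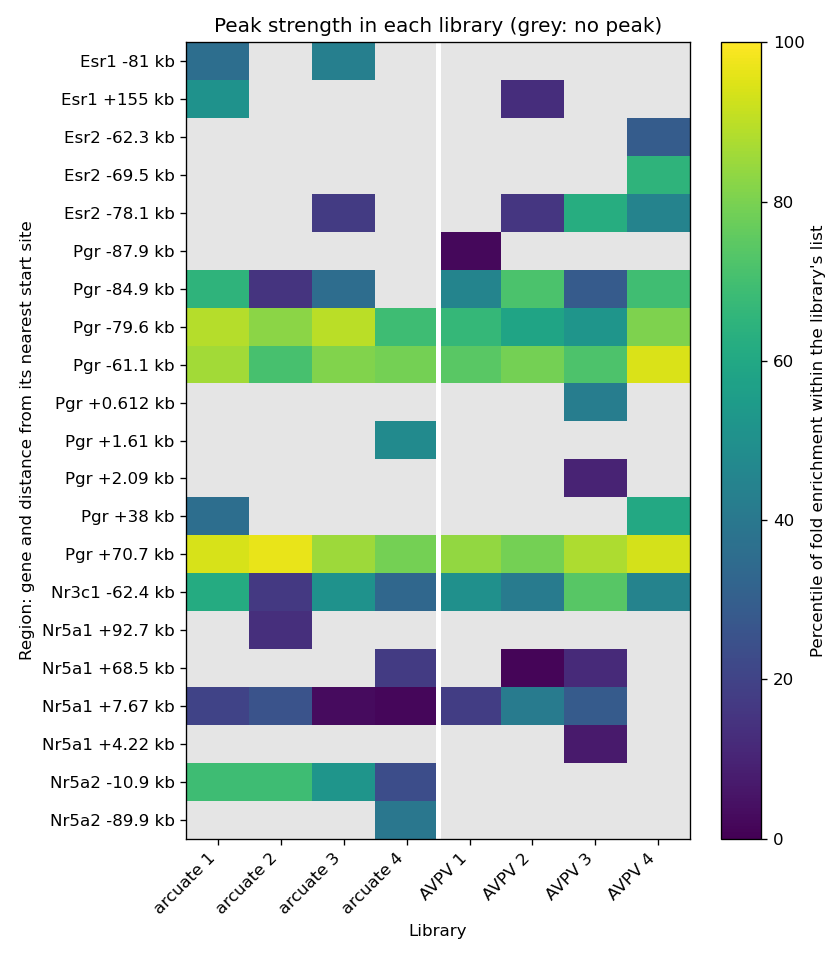
Percentile of fold enrichment within the list of each library (colour, 0 to 100) for the 21 regions (vertical axis, gene and distance from its nearest start) in the 8 libraries (horizontal axis), with grey for no peak. The 3 Pgr regions at -79.6, -61.1 and +70.7 kb and the Nr3c1 region are filled in every library, and the Nr5a2 region at -10.9 kb is filled in the 4 arcuate libraries alone.

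Across the group, 5 of 8 genes had an arcuate site, against 37.3% of all protein-coding genes, and 4 of 8 had an AVPV site, against 32.8%. The median number of sites was 1 per gene, against 0 for all genes, and the median windows were 210 kb and 200 kb. Esr1, Esr2, Nr3c1 and Nr5a2 had 1 site each, Nr5a1 had 2 and Pgr had 4. At least 1 site was found for 41.4% of all genes and at least 2 for 15.6%.

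**Figure D5:**
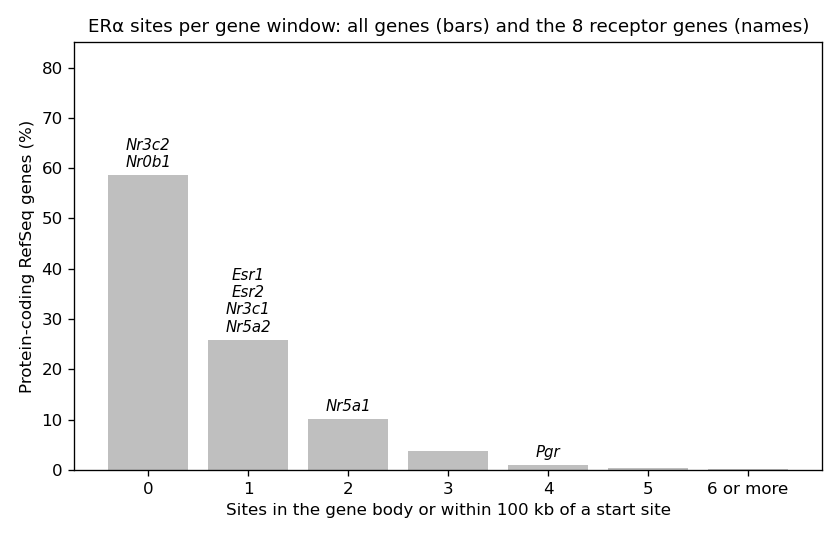
Share of the 21774 protein-coding RefSeq genes (vertical axis, %) by the number of sites in the gene body or within 100 kb of a start (horizontal axis), with the 8 genes written above the bar for their own number. Nr3c2 and Nr0b1 stand over the bar of 58.6% with no site, and Pgr over that of 1.08% with 4 sites.

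The 21 regions mostly lay far from the starts of the genes to which they were assigned. Some were close to the start of a neighbouring gene. The nearest start was that of the assigned gene in 11 and of another gene in 10. Of the 21, 8 were intergenic, 6 intronic and 2 in promoters, both of them promoters of neighbouring genes. The same shares over all regions of the series are not given here. The 4 regions called in all 8 libraries were all intergenic, while over all 1089 such regions 17.2% were intergenic and 51.2% were in promoters. Among the 187 intergenic regions called in all 8 libraries 69.0% held an element match, and of the 4 at these genes the Pgr regions at 70.7 and 79.6 kb did.

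Element matches were found in 9 of the 21 regions, which is 42.9%, against 28.5% of all regions and 33.5% of those called in all 8 libraries. These shares cover unlike mixes of sequence. Of the regions called in all 8 libraries, 51.2% were in promoters, against 2 of the 21 regions. A match was held by 5.56% of those promoter regions and by 69.0% of the intergenic ones. The matches at these genes were spread over Pgr (4 regions), Nr5a1 (2), Esr1, Esr2 and Nr5a2 (1 each). Some were in regions that were not sites, including those of Esr1 and Esr2. An exact AGGTCA on either strand was found in 8 regions, against 33.8% of all regions, and it can overlap the element. The AP-1 motif TGANTCA was found in 4 of the 21 regions, against 6.23% of all regions. These 4 were at Pgr, Nr5a1 and Nr5a2 and were called in 1 to 3 libraries each. The extended hexamer TCAAGGTCA, the recognition sequence of SF-1 and LRH-1, was found in 0 regions, against 1.11% of all regions. These are matches of letters within 100 bp of a summit and not shown binding sites.

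The 9 regions called in a single library had percentiles from 2.2 to 64.9 with a median of 29.0, and the highest was the Tex21 promoter in the Esr2 window. They were 6 in AVPV libraries and 3 in arcuate libraries, while over all 3350 such regions 32.0% were in AVPV and 68.0% in arcuate libraries.

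The other genes of the superfamily were counted by the same rule. Of 41 other nuclear receptor genes, 22 had an arcuate site (53.7%), 16 an AVPV site (39.0%), all 16 of them with both, and 19 had none. Regions called in all 8 libraries were found at Esrra, Nr1h2, Nr1h3, Nr1i3, Nr2c1, Ppara, Rarg and Rxrb, and none of these regions held an element match. They lay at the promoters of Nr1h2 and Nr1h3 themselves, 0.05 and 0.036 kb from their starts, and otherwise at promoters of neighbouring genes or, for Nr1i3, in an exon of Ufc1. The start of the neighbouring gene Acp2 was nearer still to the Nr1h3 region, at 30 bp. None of the 41 genes had a region called in 4 arcuate and 0 AVPV libraries, or the reverse.

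Of 18 genes for steroid enzymes, membrane steroid receptors and receptor chaperones, 11 had an arcuate site (61.1%), 8 an AVPV site (44.4%) and 7 none. Hsd11b1, whose enzyme regenerates active glucocorticoid, had a region called in 4 arcuate and 0 AVPV libraries, at chr1:193332123-193332479 and 68.2 kb upstream in an exon of Lamb3, with an element match. Its calls have the same pattern as those of the Nr5a2 region. Fkbp4, which encodes a chaperone of the progesterone receptor complex, had a region called in all 8 libraries in its own intron, 0.907 kb from the start. Those of Cyp17a1 and Stip1 were at the neighbouring genes Borcs7 and Gpr137, and the Stip1 region is also one of those counted for Esrra.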

How the data were processed

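ERα ChIP-seq peak lists of 4 arcuate and 4 AVPV libraries were analysed. According to the labels and methods, the authors aligned 75-nt reads to mm10 with Bowtie2 (2.5.0) and called peaks in each library with MACS2 (2.2.7.1), with a false discovery rate limit of 5%. Deposited with each peak are a fold enrichment (a ratio over local background), the -log10 of the p-value and q-value, and a score, which was not used. Whether the pooled inputs, not analysed here, served as control is not given in the sources used here. Read depth was not analysed here, and list lengths are given in its place.

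Samples were grouped by title. Peaks sharing at least 1 bp were merged and assigned with RefSeq genes of GRCm38.p6, whose chromosomes hold every peak. No 2 libraries shared an identical peak. Tests were exact, with Benjamini-Hochberg adjustment over all regions or genes. The permutation test, the merging of peaks and the element search were tried on simulated data, and the other tests were not. Named were all 8 genes, with values per library for regions in at least 4 libraries, in all libraries of 1 nucleus and none of the other, or best supported for their gene, and sequence for the region of each gene with most libraries (ties by median percentile), except that none is shown for Nr3c1. The sequences of further Pgr regions and 2 elements were chosen after their values were seen. Genes of the lists of other nuclear receptors and of steroid enzymes, membrane receptors and chaperones were named only for regions in all 8 libraries or in all of 1 nucleus alone. Members and lists were chosen with earlier results of these data known. Alternatives were window, start sites, merging, thresholds, list length, libraries per site, strength measure, replicate block, element limits and leaving out each library. Software was samtools 1.23.1 and Python 3.11.15 with pysam 0.24.0, numpy 2.4.6, scipy 1.17.1, pandas 2.3.3 and matplotlib 3.10.9.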

Additional observations from a re-analysis of the deposited data

How the results depend on the processing

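Within 50 kb, and likewise within 20 kb, there were 8 regions, 1 arcuate site, 0 AVPV sites and 1 shared site, 2 genes with an arcuate and 1 with an AVPV site, 4 regions with an element, and a mean of 2.75 peaks per arcuate and 2.0 per AVPV library. No percentile could then be compared, because the Pgr and Nr3c1 regions called in all 8 libraries lie further away. Merging summits within 100 bp left 1 arcuate site, without that of Esr1. At a -log10 q of at least 5 there were 1 AVPV site, 0 regions in 4 arcuate and 0 AVPV libraries, and 7.5 peaks per arcuate and 7.5 per AVPV library. With fold enrichment above 5 there were 0 such regions and 6.5 and 7.0 peaks per arcuate and AVPV library. With lists of equal length (2367 peaks) there were 1 arcuate site (without that of Esr1) and 1 AVPV site, 0 such regions, and 6.25 peaks per arcuate and 7.5 per AVPV library. Sites in at least 1 library gave 5 arcuate, 6 AVPV and 10 shared, in at least 3 gave 1 arcuate and 1 AVPV, and in all 4 gave 1 AVPV site and 2 genes with an AVPV site. With 1 mismatch, 5 regions held an element. By -log10 q the Nr3c1 difference reversed to 6.15 percentiles. Leaving out each library in turn gave 1 to 2 arcuate sites (1 without arcuate 1 or 3, since the Esr1 site rests on both), 1 to 2 AVPV sites (1 without AVPV 2 or 3, for the Psmb7 site in the Nr5a1 window), 6 shared sites, 4 to 5 genes with an arcuate site and 4 with an AVPV site. Mean peaks per arcuate library were 8.67 to 9.33 and per AVPV library 8.33 to 9.67, with a difference from -0.667 to 0.667. The difference at the Pgr region at -79.6 kb ranged from 13.9 to 23.4 percentiles (exact permutation p from 0.0571 to 0.114), at +70.7 kb from 0.0297 to 5.95 and at Nr3c1 from -18.9 to -3.90. At the Pgr region at -61.1 kb it ranged from -3.39 to 4.02 and reversed to 2.03 without arcuate 2 and to 4.02 without AVPV 4.

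No source says whether libraries with the same replicate number are paired. Same-numbered libraries deviated together with r from -0.213 to 0.0493 over 1089 regions (0 of 4 pairs over 0.1). Among differently numbered libraries, r was 0.239 for arcuate 4 and AVPV 3, 0.164 for arcuate 1 and AVPV 4, and 0.136 for arcuate 2 and AVPV 4. The other such pairs were below 0.1, the lowest being -0.220 for arcuate 1 and AVPV 3. These values cannot show whether libraries share animals or pools, so the tests were also run with replicate number as a block. With the replicate block the differences kept their values, with exact sign-flip p of 0.25, 1.0 and 0.75 at the Pgr regions at -79.6, -61.1 and +70.7 kb and 0.375 at Nr3c1, where the smallest possible is 0.125, and the mean difference in peaks was 0. The depth of the reads behind each list was not analysed here, so a difference in calls and a difference in depth cannot be told apart.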
